A study of Mus musculus with 16 samples.

Results

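The regions described here are H3K27ac islands that were listed in 3T3-L1 preadipocytes carrying extra SETD5 after 48 h of differentiation and in no list of the control cells. An island is a stretch of neighbouring 200 bp windows in which ChIP reads exceeded the background. Members were chosen by the H3K27ac lists themselves: an island of replicate A of SETD5 cells at 48 h was kept where it overlapped an island of replicate B by 1 bp or more and overlapped no island in the 4 lists of empty-vector cells (0 h and 48 h, replicates A and B). Of 39068 islands in replicate A, 36003 were also found in replicate B, and 3298 of these met the rule. These 3298 islands, called SETD5-only islands below, were 8.44% of the replicate A list and 9.16% of the islands found in both replicates. The other 32705 islands of both replicates overlapped an empty-vector island and serve for comparison. A second set for comparison is the reverse case, the 1659 islands of empty-vector cells at 48 h (5.3% of the 31292 in replicate A) that were found in both empty-vector replicates and in none of the 4 lists of SETD5 cells.

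3T3-L1 is a mouse fibroblast line that becomes adipocytes after induction with MDI, a mixture of a phosphodiesterase inhibitor, a glucocorticoid and insulin. All H3K27ac cells were retrovirally transduced and drug selected, either with the empty virus or with a virus for V5-tagged mouse SETD5 driven by a weak viral promoter, and were sampled at 0 h and 48 h of MDI with 2 replicates each. SETD5-V5 itself was mapped with a V5 antibody at 0 h and 6 h (2 replicates each), and H3K4me1 (0 h and 48 h) and endogenous SETD5 (0 h and 6 h) have 1 library each. The labels name the SETD5-V5 virus for the H3K4me1 libraries, which the study does not present as transduced cells, and for replicate A of SETD5-V5 the labels leave the virus blank. The labels do not say whether replicates came from separate transductions, so the spread between them may be technical in part. The promoters of all 10 preadipocyte and fibroblast markers checked (among them Pdgfra, Col1a1 and Thy1) carried an island in each of the 8 H3K27ac lists, and the promoters of 10 markers of other cell types (among them Ptprc, Pecam1 and Myod1) carried none.

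Acetylation of histone H3 at lysine 27 marks promoters and enhancers in use, while monomethylation at lysine 4 marks enhancers that are in use or held ready. SETD5 is a chromatin protein that works with the NCoR corepressor and the deacetylase HDAC3, which removes acetyl groups from histones. In preadipocytes, differentiation is accompanied by new acetylation near the genes of lipid storage. The comparison asks where islands seen only with extra SETD5 lay and whether SETD5 was found on them.

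Scores were compared within a list only, as the percentage of its islands that scored higher, so that a low percentage is a strong island. The SETD5-only islands were short and weak. Their median length was 1600 bp (quartiles 1200 and 2000 bp, longest 9800 bp) against 2200 bp for the other islands of SETD5 cells and 2600 bp for the empty-vector-only islands. A median of 77.8% of the replicate A list scored higher (range 14.3 to 99.7%), and a median of 73.6% of the replicate B list. The same median in replicate A was 42.1% for the other islands, and 92.9% of the SETD5-only islands lay below the median score of the list. Because the rule asks for absence from 4 lists with a threshold, this is a property of the selection and not a result. Empty-vector-only islands, selected in the reverse way, had a median of 73.5%.

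**Figure D1:**
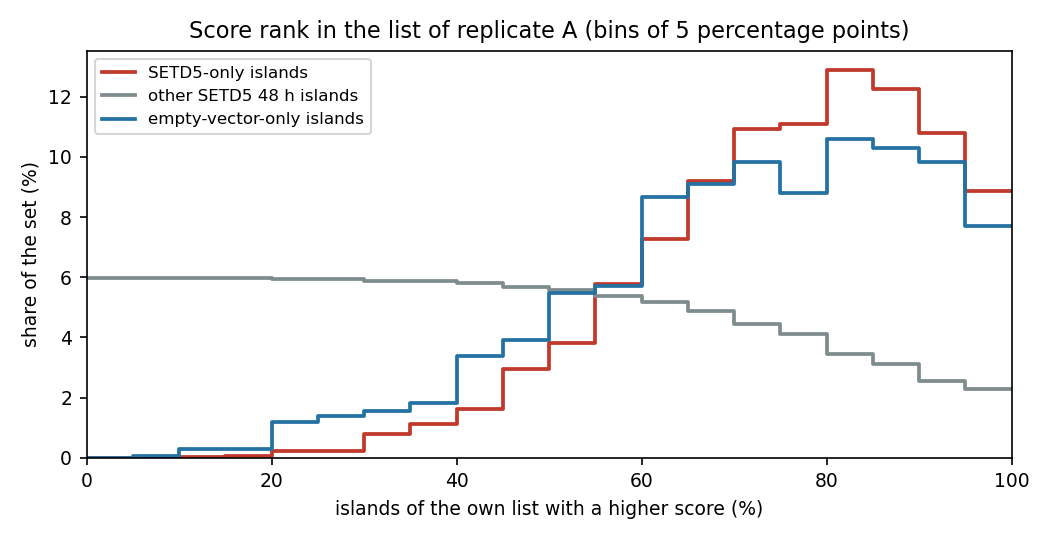
Score rank of the islands of 3 sets in the list of replicate A they were taken from. The x axis is the percentage of islands in that list with a higher score, the y axis the share of the set in bins of 5 percentage points. SETD5-only islands (median 77.8%) and empty-vector-only islands (median 73.5%) crowd to the right, where scores are low, while the other SETD5 48 h islands (median 42.1%) are spread over the axis.

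The threshold of the rule cuts through a continuous series of values. The nearest empty-vector island touched 33 of the SETD5-only islands and lay at most 1000 bp away for 336 of them (10.2%). At the other end, 863 (26.2%) had no empty-vector island within 20 kb and 111 had none within 100 kb. The median distance was 8200 bp. Just outside the rule, 111 islands shared 200 bp or less with an empty-vector island, and 2042 occurred in a single empty-vector list, with a median of 74.5% of islands scoring higher, close to the 77.8% of the members. A further 1262 islands missed every empty-vector list and were left out because replicate B lacked them. The partner in replicate B itself overlapped an empty-vector island for 172 members (5.22%). The study's read totals are higher for both SETD5 libraries of the later time than for any empty-vector library, and the part of depth in the number of members was not tested. With every H3K27ac list held to its 31000 strongest islands the number was 1648.

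The 0 h empty-vector lists set the size of the group. Without them, 6036 islands of both SETD5 replicates were absent from the empty-vector lists of 48 h. Of these, 2738 were islands of empty-vector cells at 0 h, that is, islands in at least 1 control list of 0 h and in none of 48 h. The 3298 members are the rest, which control cells did not show at either time.

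For the 15 strongest members, taken by the mean of both score ranks with the first kept of those within 100 kb, that mean ranged from 14.0% to 26.9% of islands scoring higher. The strongest lay at chr4:98460201-98465400 (mm9), 21.4 kb downstream of a start of Kank4, which encodes a scaffold protein of the cytoskeleton, and it overlapped an annotated start of another gene or transcript. It measured 5200 bp in replicate A and 4400 bp in replicate B, with 14.3% and 13.7% of islands scoring higher, and the nearest empty-vector island was 26.6 kb away. It was already listed in both 0 h libraries of SETD5 cells and in both 6 h V5 libraries. The next was a 6600 bp island in an intron of Gli2, a transcription factor of the hedgehog pathway, at chr1:120769601-120776200 (17.5% and 15.7% scoring higher). It lay 106 kb downstream of the nearest protein-coding start. It had a V5 island in replicate A at 6 h, an H3K4me1 island at 48 h and, as 1 of the 51 members that did, an island of endogenous SETD5 at 6 h. The third, 4200 bp in an intron of Pde8b, which encodes a cAMP phosphodiesterase (chr13:95997601-96001800, 18.2% and 18.9%), had V5 islands in both 6 h replicates and no H3K27ac at 0 h. The fourth lay in an intron near 4930534B04Rik, 3.0 kb from an empty-vector island, at chr12:92506401-92510200 (22.1% and 15.1%), was listed at 0 h in both SETD5 libraries and overlapped no V5 or H3K4me1 island.

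To show what strong members consist of, for 3 of these 4 islands (the sequence of the other is not reported here) the stretch of 300 bases with the most matches to the AP-1 (TGANTCA), TEAD (GGAATG) and C/EBP (TTGCNNAA) motifs on either strand is printed from the mm9 assembly, plus strand, with the matches in capitals. These motifs belong to factors that work at enhancers of fibroblasts and early adipocytes.
Kank4, chr4:98460631-98460930: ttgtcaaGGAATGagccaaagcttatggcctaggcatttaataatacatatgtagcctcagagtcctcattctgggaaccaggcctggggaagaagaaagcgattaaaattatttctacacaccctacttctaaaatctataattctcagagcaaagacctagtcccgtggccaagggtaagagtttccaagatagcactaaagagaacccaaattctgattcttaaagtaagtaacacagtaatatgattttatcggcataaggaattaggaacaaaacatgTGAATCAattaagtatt
Gli2, chr1:120770171-120770470: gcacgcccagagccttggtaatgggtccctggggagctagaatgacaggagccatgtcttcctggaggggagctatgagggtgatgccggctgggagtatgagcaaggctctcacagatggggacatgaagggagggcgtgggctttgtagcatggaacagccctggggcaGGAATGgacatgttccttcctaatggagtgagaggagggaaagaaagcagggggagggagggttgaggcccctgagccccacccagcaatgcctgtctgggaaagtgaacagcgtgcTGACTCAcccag
4930534B04Rik, chr12:92506401-92506700: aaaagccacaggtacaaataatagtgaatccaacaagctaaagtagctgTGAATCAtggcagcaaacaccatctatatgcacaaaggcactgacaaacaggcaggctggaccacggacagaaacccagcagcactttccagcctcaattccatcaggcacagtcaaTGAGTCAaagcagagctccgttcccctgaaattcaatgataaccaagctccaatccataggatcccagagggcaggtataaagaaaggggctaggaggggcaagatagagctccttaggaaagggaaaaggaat
The Kank4 and Gli2 stretches each hold 1 AP-1 and 1 TEAD match, and the stretch near 4930534B04Rik holds 2 AP-1 matches. The stretches were picked for their matches and do not stand for the 4 islands or for the members, so nothing about how common a motif is can be read from them.

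Over all members, the central 600 bp held an AP-1 match in 23.95%, a C/EBP match in 32.3% and a TEAD match in 30.5% of islands. The same shares were 21.3%, 26.5% and 29.5% in the other islands of SETD5 cells, and 27.1%, 33.4% and 28.1% in the empty-vector-only islands. GC-box matches (GGGCGG), typical of CpG-rich promoters, were found in 9.13% of members against 25.5% of the other islands, and ETS matches (CCGGAA) in 6.12% against 14.4%. The members were also poorer in G and C, with a median of 43.3% against 47.3%. Once the other islands were weighted to the GC classes of the members, the shares of the 11 motifs searched differed by between -1.65 (ETS) and 1.25 (E-box) percentage points, and the AP-1, TEAD, STAT, homeobox, E-box and CRE differences changed sign. The motif with the next widest gap was the GC-box, at -1.38. Besides those spelled out above, the letters searched on both strands were TGTGGT (RUNX), CAGCTG (E-box), TGACGTCA (CRE), TTCNNNGAA (STAT), TAATTA (homeobox) and TGTTTAC (forkhead).

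The 7 members that overlap Setd5 itself stand apart from all others (chr6:113027359-113103429, plus strand). Each of the 7 lay over coding exons, and together they overlapped 17 of the 21 coding exons and 3642 of the 4380 coding bases. The first began at 113055001, just before the first coding base at 113055045, and the last ended at 113101600, just past the last coding base at 113101461. The last was also the strongest of them, at chr6:113099401-113101600 with 21.5% and 24.8% of islands scoring higher, and it was among the 15 strongest of all members. Over the 21 coding exons, the 4 lists of empty-vector cells held an island on 0 in each replicate at each time. The lists of SETD5 cells held islands on 15 and 16 of them before MDI, and on 18 and 19 after 48 h of it. The rule used the control lists and the 48 h lists of SETD5 cells, so their separation is a description, while the 0 h lists of SETD5 cells were not used.

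SETD5-V5 libraries had islands on 21 and 19 of these exons before MDI and on 21 and 20 after 6 h. The H3K4me1 libraries covered 0 at 0 h and 1 at 48 h, and the endogenous SETD5 libraries 0 at both times. The 5′ part of the gene, around its first start site, carried H3K27ac islands in all 8 libraries. The virus holds the Setd5 coding sequence without its introns, so reads from viral copies align to these exons, and reads from the virus and from the cell's own exons cannot be told apart. These 7 islands were counted as members because the rule includes them. Without them 3291 remain.

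**Figure D2:**
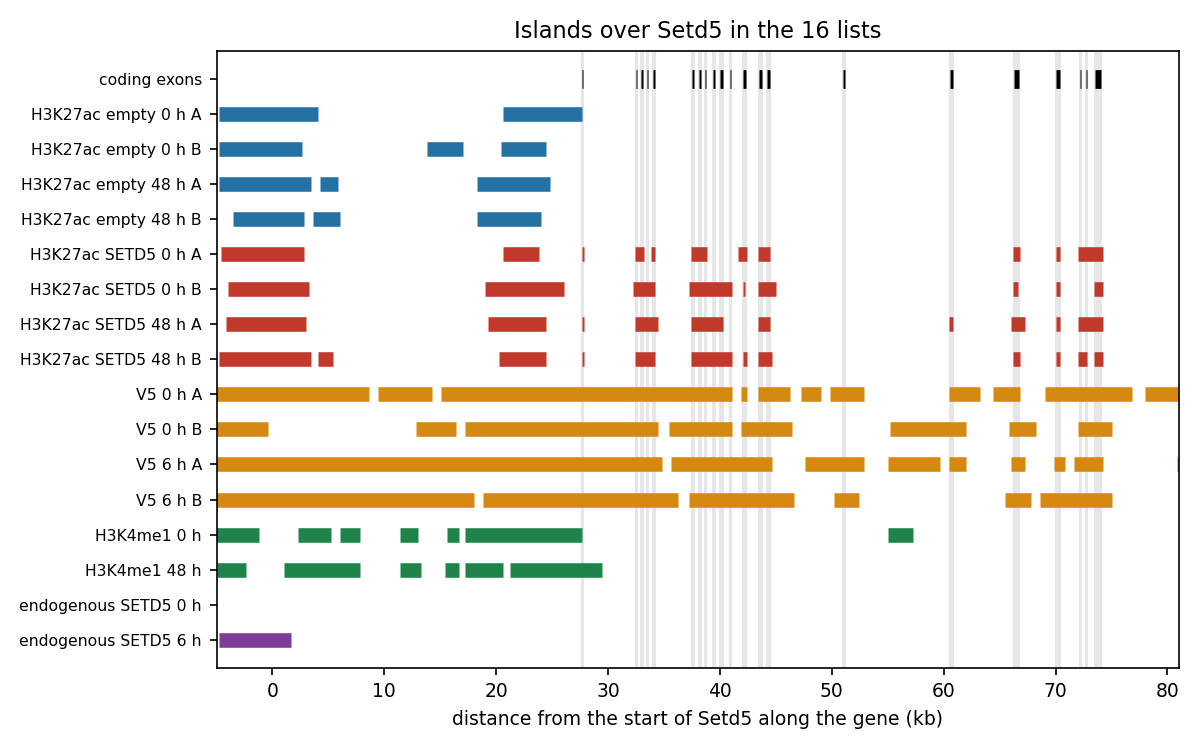
Islands of each of the 16 lists over Setd5 and 5 kb on both sides, by distance from the start of the gene in kb. Black marks and grey bands are the 21 coding exons. H3K27ac islands of SETD5 cells (red) sit on the exons as narrow blocks and those of empty-vector cells (blue) end before the first coding exon, while V5 islands (orange) lie on 19 to 21 of the coding exons and H3K4me1 islands (green) on 1 at most.

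Of the 154 genes with 3 or more SETD5-only islands, 2 had each of them over a coding exon, Setd5 with 7 and St7l with 3. In the genes other than Setd5, 75 of 676 such islands touched a coding exon, and the highest number in a gene was 3. Over all members the share on a coding exon was 12.3%. It was 29.6% in the other islands of SETD5 cells and 15.4% in the empty-vector-only islands.

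The members lay mostly inside genes and away from start sites. A promoter (1000 bp upstream to 100 bp downstream of any annotated start) was overlapped by 249 of them, 7.55%, an exon outside promoters by 360 (10.9%), an intron by 1506 (45.7%), and 1183 (35.9%) were intergenic. Among the other islands of SETD5 cells the promoter share was 33.9% and the intron share 25.6%. Of the empty-vector-only islands 9.83% lay at promoters, 26.8% in introns and 51.1% between genes. The intron share of 45.7% was higher in the members than in either comparison set, and this was not tested. The median distance from the centre to the nearest protein-coding start was 31.0 kb, against 13.9 kb for the other islands and 27.5 kb for the empty-vector-only islands, and 659 members (19.98%) lay more than 100 kb from any start.

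Among the 209 members at the promoter of a protein-coding gene, the strongest lay at Slitrk5, a neuronal membrane protein (chr14:112073801-112077400, 22.7% and 18.9% of islands scoring higher). It was 570 kb from the nearest empty-vector island and was listed in both SETD5 libraries of 0 h. The other 5 of the 6 strongest were at Eng, the TGF-beta coreceptor endoglin (32.4% and 32.3%), at an inner promoter of Pde10a (35.7% and 29.9%), at Setd5, at Zfp791 (38.6% and 34.9%) and at Adamtsl4 (74.8% and 2.73%). At Adamtsl4 the island measured 2600 bp in replicate A and 12200 bp in replicate B, with an empty-vector island 0.2 kb from the former.

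The members were spread over 2062 nearest genes, and some gene bodies held several. Genes were ranked for this by the number of members in the gene body, after the values had been seen. Ebf2, a transcription factor that drives brown fat identity, held 8 members among the 9 islands that both SETD5 replicates shared there. Over Ebf2, empty-vector libraries had 0 and 0 islands before MDI and 1 and 0 after it, and SETD5 libraries 4 and 3 before and 9 and 10 after. The gene was picked for its members, so the excess at 48 h and the low control counts follow from the rule. The 0 h counts of SETD5 cells were not used by it. Only 1 of the 8 overlapped V5 in both 6 h replicates, 1 overlapped H3K4me1 at 0 h, and 2 were listed in both SETD5 libraries before MDI.

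Pde10a, a phosphodiesterase of cAMP and cGMP, held 12 members of 15 shared islands. Here empty-vector libraries had 0 and 0 islands before MDI and 3 and 4 after it, and SETD5 libraries 1 and 1 before and 16 and 26 after. Here too the high 48 h counts of SETD5 cells and the low control counts follow from how the gene was picked. None of the 12 overlapped V5 in both 6 h replicates, and none carried H3K4me1 at 0 h.

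Fndc3b and Snd1 were of the opposite kind. Fndc3b, first described as a factor in adipogenesis, held 11 members of 27 shared islands, and V5 islands of both 6 h replicates lay on all 11. Empty-vector libraries held 6 and 7 islands there before MDI and 15 and 14 after it, SETD5 libraries 11 and 11 before and 31 and 28 after. Snd1, a nuclease and transcriptional coactivator, held 10 of 25, again with V5 of both replicates on all 10, and 8 of them had H3K4me1 at 0 h. Its islands numbered 8 and 8, 18 and 18, 12 and 10, and 32 and 30 in the same order. In both genes the control libraries held more islands after MDI than before it, and the high 48 h counts of SETD5 cells again follow from the rule. V5 islands of 6 h (replicates A and B) covered 227.229 and 214.029 kb of the 295.146 kb of Fndc3b. In Snd1 they covered 395.862 and 341.862 kb of 460.024 kb, but in Pde10a 15.964 and 18.964 kb of 461.277 kb. V5 thus lay over most of Fndc3b and Snd1, and an overlap there does not single out the members. The part of this coverage in the overlaps was not tested.

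Gulp1, an adaptor for the engulfment of dead cells, held 12 members of 24 shared islands, with V5 in both 6 h replicates on 3. Csmd3 held 11 of 17 and Utrn, which encodes the dystrophin-like utrophin, 10 of 18. Pde4d, a further cAMP phosphodiesterase, held 14, the highest number, in a gene of 1504 kb with 57 shared islands. Csmd3 also contained the longest member, 9800 bp at chr15:48131201-48141000, which was 29400 bp long in replicate B and lay 111 kb from any empty-vector island. The other long members included 7000 bp in Hdgfrp3, 6600 bp in Pmepa1 and 6200 bp in Vav2, each in an intron.

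**Figure D3:**
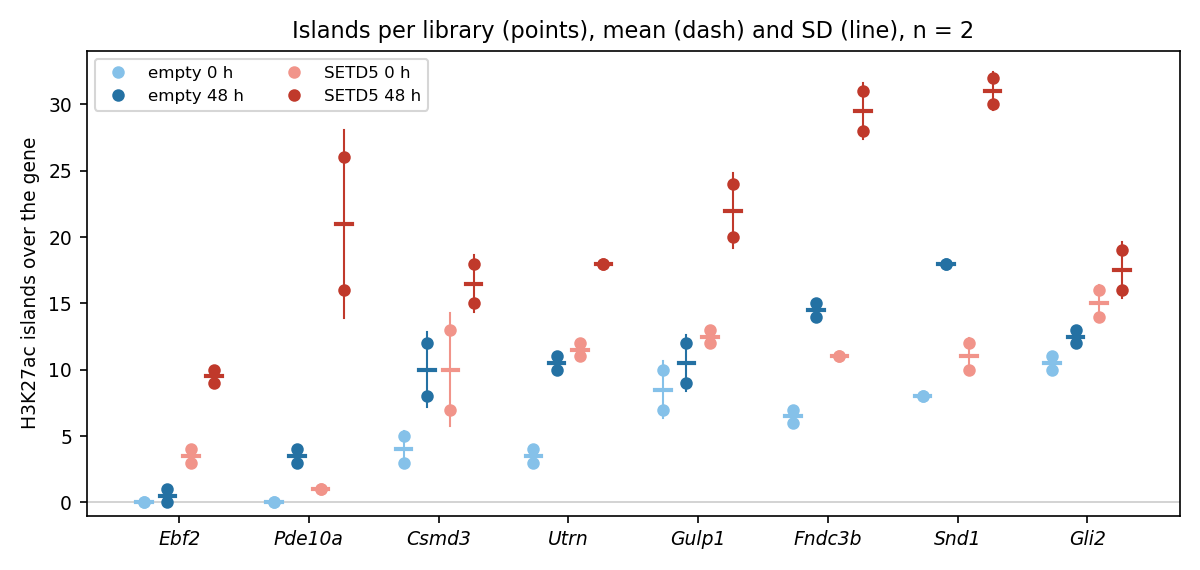
Number of H3K27ac islands over 8 genes rich in SETD5-only islands, in each of the 8 H3K27ac libraries. Points are libraries, dashes the mean and vertical lines the SD of 2 replicates. Since the genes were chosen for their members, the height at SETD5 48 h and the control counts are descriptions. Ebf2 also has islands in SETD5 cells at 0 h (4 and 3), and Pde10a has 1 in each of those libraries. That control cells have none there follows from how the genes were picked.

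By windows of 1 Mb, 555 windows held a single member. The window with the most was chr3:27000001-28000000, with 15 members among 44 shared islands, 11 of them in Fndc3b. Next came chr15:10000001-11000000 with 14 of 53, including 4 in Rai14 and 3 in Prlr, the prolactin receptor. The remaining 3 of the top 5 held 12 members each: chr1:44000001-45000000 (Gulp1), chr1:120000001-121000000 (7 in Gli2) and chr14:44000001-45000000. None of the 5 windows contained an empty-vector-only island. Such islands were near 5.06% of members (within 50 kb) and near 11.6% of the other islands of SETD5 cells. Another member lay within 20 kb of 892 members (27.05%). The same share was not computed for the comparison sets, so clustering cannot be read from it.

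The share of the replicate A islands that were members differed between chromosomes, from 5.24% on chromosome 11 (130 of 2480) to 12.8% on chromosome 3 (302 of 2362) and 12.3% on chromosome 14 (183 of 1483). On chromosome X it was 8.61%. Over the 19 autosomes, the share was lower where genes were dense (Pearson r = -0.61, Spearman rho = -0.69) and lower where more of the control islands were empty-vector-only (r = -0.56, rho = -0.55). Chromosomes share libraries and differ in base composition, and these values are descriptions.

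Whether SETD5 was found on the members is answered by lists that the rule did not use. At 0 h, V5 islands overlapped 329 members (9.98%) by replicate A and 103 (3.12%) by replicate B. At 6 h they overlapped 1505 (45.6%) and 1136 (34.4%). The mean share was 6.55% ± 4.85 (SD, n = 2) at 0 h and 40.04% ± 7.91 (SD, n = 2) at 6 h, and the ranges of both times did not overlap. The difference of 33.5 percentage points had p = 0.333 in the exact permutation test (two-sided), the smallest value that 2 libraries against 2 allow. The V5 lists themselves grew between these times, from 16054 and 6666 islands to 35573 and 27220.

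The share with V5 at 6 h was below that of H3K27ac islands in general. Of all replicate A islands, 70.1% overlapped V5 of replicate A and 51.8% V5 of replicate B. Against the other islands of SETD5 cells, members differed by -29.1 percentage points for V5 replicate A and -20.7 for V5 replicate B, which averages -24.9 ± 5.93 (SD, n = 2). The members were also shorter and scored lower. Within length classes, the last of them open above 3000 bp, the mean gap was -13.8 percentage points. Within 10 classes of score rank it was -10.9, and both gaps had the same direction in both replicates. Among members over 3000 bp, 58.9% of 151 had V5 of replicate A, against 91.1% of 10110 other islands in this class. Lengths within it differ, since the longest member had 9800 bp and the longest other island 170600 bp.

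Against the empty-vector-only islands the order was reversed. V5 of 6 h lay on 26.8% and 20.6% of those, so members were higher by 18.9 and 13.8 percentage points, which averages 16.4 ± 3.56 (SD, n = 2). With these islands weighted to the members' lengths the gaps were 23.5 and 18.03 in the same order. At 0 h the same gaps were 3.77 and 1.31, small beside the difference between the V5 replicates. In both V5 replicates of 6 h the share on SETD5-only islands lay between the shares on the other 2 sets. With 2 libraries a test of this order could not pass the threshold, and none was run. V5 was mapped in cells with SETD5-V5. By rule every member had an H3K27ac island in SETD5 cells at 48 h, and the empty-vector-only islands had none there at 0 h or 48 h. The part of this in the gap was not tested.

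V5 of both 6 h replicates lay on 987 members (29.9%), of a single replicate on 667 (20.2%) and of neither on 1644 (49.8%). The 6 strongest with V5 in both were the islands at Kank4, Pde8b and Setd5 named above, 1 in Btbd9 (chr17:30675601-30680600, 26.3% and 23.7% of islands scoring higher), 1 near Tasp1 (chr2:139906201-139909000, 23.99% and 26.5%) and 1 near 4931408A02Rik (chr16:90862601-90866200, 31.5% and 23.0%). Of these, the islands in Btbd9, near Tasp1 and near 4931408A02Rik also had H3K4me1 at 0 h. The endogenous SETD5 libraries, with 2132 and 3293 islands, covered 22 members (0.667%, 95% Wilson interval 0.441 to 1.01) at 0 h and 51 (1.55%, 1.18 to 2.03) at 6 h.

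**Figure D4:**
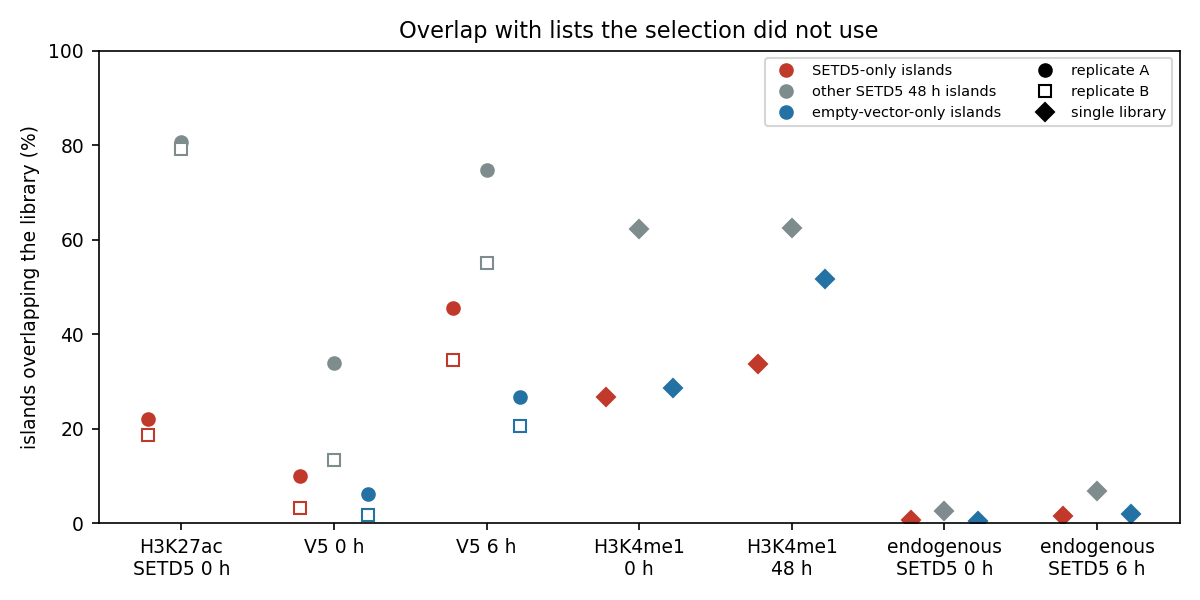
Share of islands that overlap an island of each library that was not used to choose the SETD5-only islands, in percent. Colours are the 3 sets of islands. Circles and open squares are replicates A and B, and diamonds are conditions with a single library. In the V5 libraries at 6 h the SETD5-only islands (45.6% and 34.4%) lie between the other islands (74.7% and 55.1%) and the empty-vector-only islands (26.8% and 20.6%).

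H3K4me1, the mark of primed enhancers, was listed on a smaller share of the members than of H3K27ac islands in general. At 0 h it was listed on 880 (26.7%, 95% Wilson interval 25.2 to 28.2) and at 48 h on 1109 (33.6%, 32.0 to 35.3), where all replicate A islands had 57.7% and 58.7%. With the 48 h empty-vector lists alone in the rule, the share at 0 h was 42.9%. The share of the other islands of SETD5 cells was 62.2% and 62.6%. Within the length classes the members differed from them by -26.3 percentage points at 0 h and -19.6 at 48 h, and these single libraries have no replicate check. Empty-vector-only islands had almost the members' share at 0 h (28.7%) but a higher one at 48 h (51.7%, 49.3 to 54.1). Intervals cover counting error only. The labels name the SETD5-V5 virus for the H3K4me1 libraries, but the study does not present them as transduced cells. If they came from cells without it, the members would be chosen for missing H3K27ac in cells of that kind. The part of this selection in the low share was not tested.

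H3K4me1 was present at both times on 583 members (17.7%), at 0 h alone on 297 (9.01%), at 48 h alone on 526 (15.9%) and at neither on 1892 (57.4%). V5 went with it. Of the members with H3K4me1 at both times, 48.4% had V5 of both 6 h replicates, and of those with none, 21.5% had it. In turn, H3K4me1 at 0 h was listed on 39.0% of the members with V5 of both replicates and on 17.3% of those without V5 at 6 h. Members are not replicates of a condition, and these shares have no test. A total of 385 members (11.7%) had both V5 at 6 h in both replicates and H3K4me1 at 0 h, and 915 (27.7%) had neither V5 at 6 h, nor H3K4me1 at any time, nor H3K27ac at 0 h.

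Some members were already acetylated before MDI. The 0 h lists of SETD5 cells contained 729 (22.1%, replicate A) and 613 (18.6%, replicate B), on average 20.3% ± 2.49 (SD, n = 2). Both replicates had 449 (13.6%), 1 of them had 444 and neither had 2405 (72.9%). The rule removes every island that control cells held at 0 h, which bears on this share. With the 48 h empty-vector lists alone in the rule it was 52.5%. The other islands of SETD5 cells, selected to overlap an empty-vector list, were found at 0 h in 80.6% and 79.2%. The 449 present at 0 h in both replicates were somewhat stronger, with a median of 71.3% of islands scoring higher as the mean of both ranks, against 76.6% for those absent at 0 h, and had H3K4me1 at 0 h more often (41.2% against 21.2%). Their share with V5 of both 6 h replicates was 33.6%, against 29.1%. For comparison, 149 of the 1659 empty-vector-only islands (8.98%) were listed in each 0 h replicate of empty-vector cells.

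Nearby genes were described with 17 lists of genes. A gene counted where an island lay within 50 kb of a start site, which held for 2916 of 22238 protein-coding genes with SETD5-only islands (13.1%) and for 8.68% with empty-vector-only islands. The lists are small, and these counts have no test. Of 27 adipocyte lipid genes, 1 (3.7%) had a SETD5-only island nearby, Elovl6, a fatty acid elongase. In the reverse set it was 9 of 27 (33.3%), namely Acsl1, Adipoq, Agpat2, Cd36, Cidec, Dgat2, Fabp4, Lpl and Slc2a4, which take up, activate and store fatty acids or glucose or are secreted by fat cells. Within 10 kb the counts were 1 against 8, and within 100 kb 3 against 13. For chemokines and cytokines it was 1 of 26 (Tnfsf11) against 6 of 26, but within 10 kb it was 1 against 0.

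Of the genes of actin and smooth muscle, 7 of 20 (35.0%) had a SETD5-only island nearby and 1 of 20 an empty-vector-only island. Mkl1 and Mkl2, coactivators of serum response factor that carry actin signals to the nucleus, were among them with Myocd, Tagln, Cald1, Lmod1 and Vcl. The strongest of these islands was 2800 bp in Mkl1 (43.9% and 56.8% of islands scoring higher), with V5 of both 6 h replicates and H3K4me1 at both times. An island of 1600 bp at the promoter of Tagln, a smooth muscle actin-binding protein, was listed in both SETD5 libraries at 0 h (75.7% and 64.3%).

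Of the Wnt pathway, which restrains adipogenesis in preadipocytes, 7 of 32 genes (21.9%) had a SETD5-only island nearby and 0 of 32 an empty-vector-only island. Rspo2, which encodes a secreted enhancer of Wnt signalling, had an island at -4.74 kb (upstream) from a start site (60.4% and 60.1%), with V5 of both 6 h replicates and H3K27ac in both SETD5 libraries at 0 h. The others were the coreceptor Lrp5, the transcription factor Tcf7l2, the receptor Fzd8, the secreted modulators Dkk3 and Sfrp1, and Wisp2. Among growth factor genes, 9 of 33 (27.3%) had a member nearby, against 4 of 33. The strongest lay at -29.03 kb (upstream) from a start of Fgfr1 (46.7% and 37.3%), and Ereg and Areg, ligands of the EGF receptor, shared islands.

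Of genes of axon guidance, 8 of 34 (23.5%) had a member nearby against 1 of 34. The strongest was 2600 bp long and at -30.1 kb from a start of Sema5a, a semaphorin (33.8% and 36.5%). Ncam1, Slit2, Slit3, Ntn1, Unc5c, Efnb2 and Sema6a made up the rest. Extracellular matrix genes counted 10 of 38 (26.3%) against 6 of 38, with Fbn1, Col5a2, Fn1 and Col8a1 near the strongest islands. Regulators of adipogenesis counted 6 of 17 (35.3%) and 4 of 17. The former were Ebf1, Ebf2, Klf9, Stat5a, Stat5b and Zfp423, and the latter included Cebpa and Ebf1. Stat5a and Stat5b were counted from the same island. Within 10 kb the counts were 2 against 2 for extracellular matrix, 2 against 1 for axon guidance and 4 against 3 for growth factor genes. They were 2 against 0 for the regulators of adipogenesis, and 3 against 0 for both the actin and the Wnt list. The extracellular matrix share within 10 kb was 5.26% in both sets, where all genes had 4.17% with SETD5-only and 2.46% with empty-vector-only islands.

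The corepressors and SETD family counted 7 of 21 against 5 in the reverse set, among which Setd5 comes from the exons described above. Ncor1, the corepressor itself, had a 2000 bp island at -0.76 kb from a start site (74.1% and 58.4%), and Tbl1xr1, a further part of the complex, also had a member nearby. Hox genes counted 10 of 39 against 8. All 10 lay within 50 kb of a single island in the Hoxa cluster (chr6:52146201-52148200, 76.7% and 64.8%). The 25 preadipocyte and anti-adipogenic factors counted 3 (12.0%), Klf4, Meis1 and Runx2, against 4 in the reverse set. Factors of AP-1 and the immediate early response counted 2 of 14 (Fos and Jun) against 1, with 0 against 1 within 10 kb. TEAD and YAP targets counted 3 of 13 (Cyr61, Tead1 and Yap1) against 2, and interferon genes 2 of 20 (Ifit2 and Oasl2) against 1. TGF-beta and BMP genes counted 4 of 30 in both sets, and cell cycle genes 2 of 30 in both. Chondrocyte and osteoblast genes counted 2 of 22 against 4. In 11 of the 17 lists the share was above the 13.1% of all genes, with the TGF-beta and BMP list close to it at 13.3%. In the reverse set, too, most lists lay above its 8.68% of all genes, so this count does not set the members apart.

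**Figure D5:**
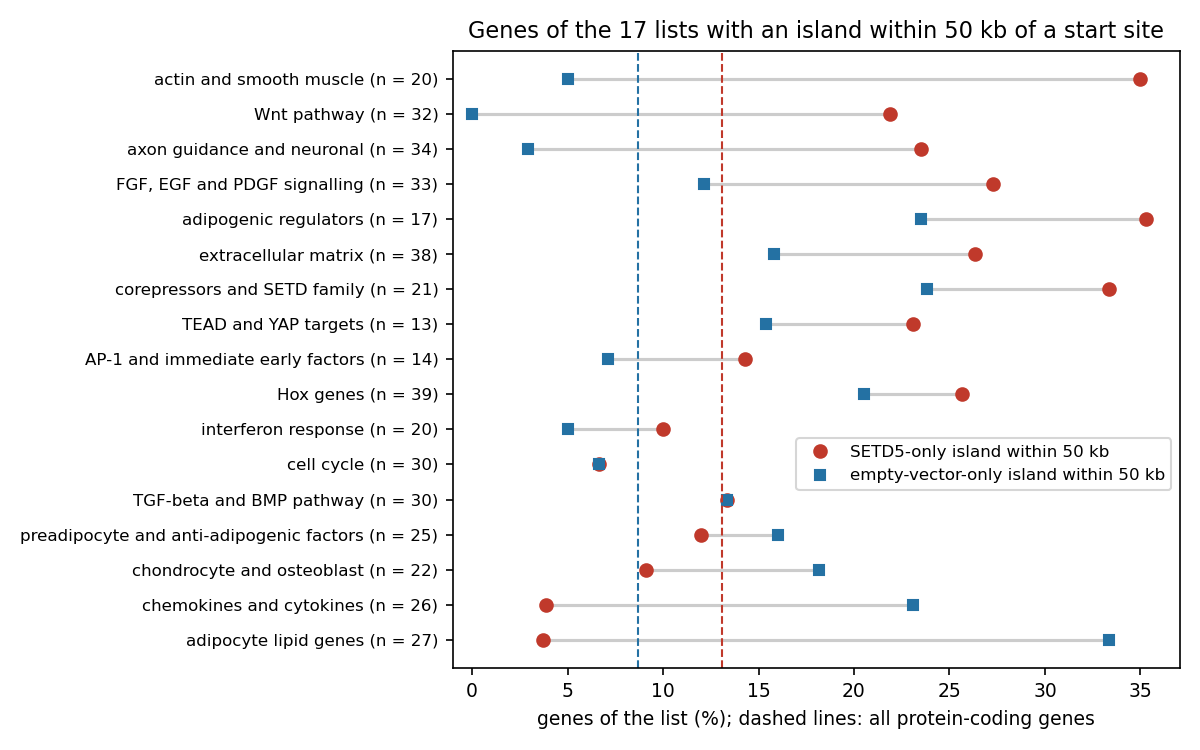
Percentage of the genes of each of 17 lists with an island within 50 kb of a start site. Circles are SETD5-only and squares empty-vector-only islands, dashed lines give the share over all protein-coding genes (13.1% and 8.68%), and n is the number of annotated genes in the list. Adipocyte lipid genes at the bottom (3.7% and 33.3%) and actin and smooth muscle genes at the top (35.0% and 5.0%) are the ends of the order, which is by the difference between both sets.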

How the data were processed

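ChIP-seq of 3T3-L1 cells gave 16 libraries. The authors aligned the first 36 bp of reads to mm9 (ELAND or Bowtie2), then called islands per library with SICER or SICER2 (E-value 100, 200 bp windows, with a gap of 400 bp allowed in histone libraries and of 600 bp in SETD5 libraries). Each deposited list gives position and score per island. The score is the authors' value from the caller and was used only to rank islands within a list. Counts within islands were not used, so depth per island is unknown, and absence from a list means below its threshold. Of the 16 lists, 0 pairs were identical.

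Groups and replicate letters came from the labels. Nothing in the labels says what the letters pair, so replicates may be technical in part. Positions and sequences are from NCBIM37 (mm9) with GENCODE vM1. Members and gene lists were chosen with earlier results of these data known. Named islands were the 15 strongest and 8 longest (first within 100 kb), the 6 strongest at protein-coding promoters and with V5 in both 6 h replicates, the 5 fullest windows of 1 Mb, all over Setd5, and up to 4 per gene list. Length classes were up to 1000, 1200 to 1400, 1600 to 2000, 2200 to 3000 and over 3000 bp. Islands were not treated as replicates. Python 3.11.15, numpy 2.4.6, pandas 2.3.3 and scipy 1.17.1 were used, and overlap functions were tested on simulated islands. The alternatives tried are named in the closing section. Some items are not reported here.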

Additional observations from a re-analysis of the deposited data

How the results depend on the processing

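The number of members depended on the rule. It was 177 with SETD5 islands above the median score of their lists, 1648 with 31000 islands per list, 2076 with empty-vector islands widened by 5000 bp and 6036 with the empty-vector lists of 48 h only, and it stayed within 1.5 times of 3298 under the other planned settings except the replicate left out below. Leaving out each replicate gave 3551 to 5117, the highest without replicate A of SETD5 cells at 48 h. Under all alternatives tried, shares with V5 ran from 34.4% to 45.6% at 6 h and from 3.12% to 10.8% at 0 h. Both ends at 6 h and the low end at 0 h came from leaving out 1 V5 replicate. With 2 replicates such a step cannot move the mean by more than their SD, so it does not test stability. The other settings also moved the shares by less than the SD, but an SD of 2 libraries is a loose bound.

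The share with H3K4me1 was, at 0 h and 48 h, 23.0% and 29.5% with an overlap of 50%, 19.2% and 26.6% above the median score, 22.7% and 29.0% with the widening of 5000 bp, and 42.9% and 37.1% with the 48 h empty-vector lists only. Leaving out replicates gave 26.5% to 29.1% and 32.7% to 37.5%. The share with H3K27ac at 0 h was 30.8% above the median score, 17.1% with 31000 islands and 52.5% with the 48 h empty-vector lists only, and 17.8% to 25.5% with replicates left out. Promoters had 12.1% with windows of 2000 bp on both sides, and 7.54% to 8.68% with replicates left out. The V5 gap between members and other islands was -13.8 within length classes and -10.9 within 10 classes of score rank.

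With the replicate block, the V5 difference between 6 h and 0 h was 33.5 percentage points in the paired data as well, with p = 0.5 in the exact permutation test, the smallest that 2 pairs allow. Without V5 replicate A it was 31.3 and without replicate B 35.7. Of the 11 motifs, 7 were more frequent in members than in other islands, 7 with 1000 bp and 5 with GC classes. Of the 17 gene lists, 11 lay above all genes, 11 within 10 kb and 13 within 100 kb. Most lists of the reverse set also lay above all genes at each distance, so these counts do not set the members apart. After seeing the data, members over Setd5 (3291 remained) and those whose replicate B partner overlapped an empty-vector island (3126 remained) were left out, with V5 at 6 h on 39.9% and 39.1%.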

Other observations

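Of the 2738 islands that both SETD5 replicates held at 48 h, that empty-vector cells held at 0 h and that were missing from the empty-vector lists of 48 h, 92.7% and 89.9% were listed in SETD5 cells at 0 h. H3K4me1 lay on 62.5% of them at 0 h and on 41.2% at 48 h, and V5 of 6 h on 57.5% and 42.5%. The SETD5-only islands of the report had 26.7% and 33.6% with H3K4me1 and 45.6% and 34.4% with V5. The difference was not tested.

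The lists give no reads within islands, so a member can be a site just above the threshold in SETD5 cells and just below it in control cells. Its part in the number of members was not tested.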
